A study of Mus musculus with 6 samples.

Results

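The microRNAs described here are the 10 members of the miR-17-92 family of clusters that were read in the dentate gyrus: mmu-miR-17, mmu-miR-18a, mmu-miR-19a, mmu-miR-19b, mmu-miR-20a and mmu-miR-92a of the miR-17-92 cluster, mmu-miR-106b, mmu-miR-93 and mmu-miR-25 of the miR-106b-25 cluster, and mmu-miR-106a of the related miR-106a-363 cluster. They were taken by name from the 381 assays of a TaqMan microRNA card, and all 10 were present. Granule neurons continue to be born there, in the hippocampus, in adult rodents. It was dissected 72 h after intraperitoneal injection from 6 male mice labelled C57/Black6J (C57BL/6j in the methods of the study) of 6 to 8 weeks, 3 given saline and 3 given kainic acid, a glutamate receptor agonist, until they entered status epilepticus (KA-SE). Only kainic acid-injected mice that reached severe seizures (class IV to V) were kept, so KA-SE stands for mice that responded strongly. Each mouse gave 1 library and 1 card, and the tissue held all cell types of the dissected region.

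A microRNA cluster is a set of hairpins cut from 1 primary transcript, after which each mature microRNA is matured, loaded and degraded on its own. A mature microRNA finds its target mRNAs mainly through its seed, bases 2 to 8 from the 5′ end, so members with the same seed share many targets even when they come from different chromosomes. The miR-17-92 cluster is a Myc-driven transcript known for promoting proliferation and survival, in neural progenitors among other cells. The miR-106b-25 cluster lies in an intron of Mcm7, the gene of a subunit of the replicative DNA helicase. Known targets of the miR-17 seed include the cell cycle inhibitor Cdkn1a and the pro-apoptotic Bcl2l11.

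The mature sequences are printed because the comparisons below turn on shared seeds. They come from RefSeq on GRCm38.p6, where all 10 members were matched, and where the older assay name gives no arm the dominant strand was taken. The mature members of miR-17-92 span chr14:115043684-115044496 (plus strand) in the long noncoding host gene Mir17hg, those of miR-106b-25 span chr5:138165332-138165807 (minus strand) inside Mcm7, and those of miR-106a-363 span chrX:52741697-52742563 (minus strand). Identical mature miR-19b and miR-92a are each encoded by 2 genes, on chromosomes 14 and X, and their assays cannot tell the copies apart. Seeds are in capitals. The 10 members fall into 4 seed groups, the first of which is spread over all 3 clusters:
mmu-miR-17: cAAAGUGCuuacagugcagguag
mmu-miR-20a: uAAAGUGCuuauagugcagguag
mmu-miR-106a: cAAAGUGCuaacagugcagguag
mmu-miR-106b: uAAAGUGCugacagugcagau
mmu-miR-93: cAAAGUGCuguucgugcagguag
mmu-miR-18a: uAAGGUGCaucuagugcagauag
mmu-miR-19a: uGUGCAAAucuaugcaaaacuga
mmu-miR-19b: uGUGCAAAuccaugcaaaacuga
mmu-miR-92a: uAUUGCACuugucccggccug
mmu-miR-25: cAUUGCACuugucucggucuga

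Several of these differ at very few bases. Counting from the 5′ end, miR-17 and miR-106a differ by 1 base (U10A), miR-19a and miR-19b by 1 base (U11C), and miR-17 and miR-20a by 2 bases (C1U and C12U). miR-17 and miR-106b differ by 3 bases (C1U, U10G and G20A) and by the length of the 3′ end. How well the assays tell them apart was not tested.

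Each assay was read as a threshold cycle (Ct), which is reached earlier the more of its RNA is present, with 40 where nothing amplified. One saline library stood apart before any comparison. In saline replicate 2, 132 of 303 assays with a Ct below 35 (43.6%) had a Ct within the last 0.1 of a cycle before a whole number, against 15.3% to 23.2% in the other 5 libraries. Of the members, 8 of 10 lay there in saline replicate 2 and 1 or 2 in each other library. miR-93 was 0.022 cycles short of 24 and miR-17 0.039 cycles short of 22, while miR-20a (0.168 short) and miR-25 (0.463 short) were the 2 exceptions. In that library miR-17, miR-106a, miR-19b and miR-92a lay within 0.037 cycles of each other, from 21.924 to 21.961. They covered 1.94 to 2.76 cycles in each of the others. The cause was not tested. Values without this library are given beside the comparisons.

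**Figure D1:**
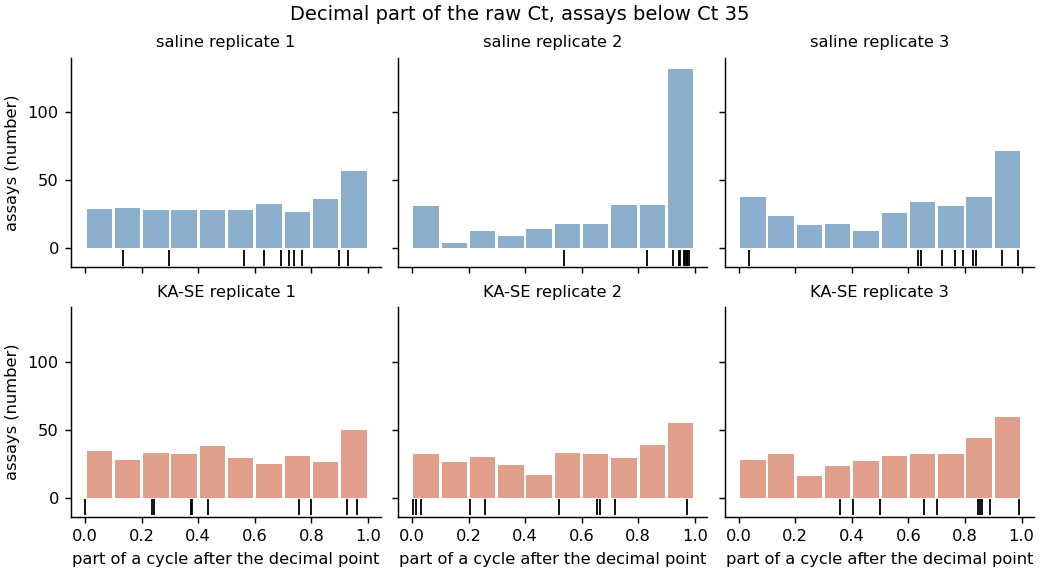
Histograms of the decimal part of the Ct, in cycles, over all assays with a Ct below 35 in each of the 6 libraries, with the 10 members as ticks under each histogram. In saline replicate 2, 43.6% of assays lie in the last 0.1 of a cycle, and 8 of the 10 member ticks lie there too.

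Saline replicate 2 was also late as a whole. Set beside saline replicates 1 and 3 averaged, it crossed later by a median of 2.23 cycles over the 281 microRNAs tested (those below 35 in all 6 libraries), by a median of 2.66 cycles over the members and by only 0.73 cycles for the small nuclear RNA U6, the reference RNA. Members were not delayed alike: miR-19a was 3.69 cycles later, miR-20a 3.37, miR-106b 3.27, miR-19b 3.15 and miR-18a 3.11, whereas miR-25 was 1.66 and miR-92a 0.91 cycles later. Levels below subtract the Ct of a member from that of U6 in the same library and are read as log2 values, with a doubling per cycle assumed. The late library therefore lowers the saline level of most members.

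All 10 members were detected in all 6 mice. By mean Ct over the 6 libraries the order ran from miR-19b (19.1), miR-106a (20.1), miR-17 (20.1), miR-20a (21.0), miR-92a (21.1), miR-93 (22.1), miR-106b (23.0), miR-19a (23.7) and miR-25 (24.98) to miR-18a (27.1). The neighbours miR-106a and miR-17 changed places between libraries, with gaps from -0.046 to 0.119 cycles. miR-20a before miR-92a and miR-19a before miR-25 held in 5 of 6 libraries, with saline replicate 2 reversed, and the remaining neighbours kept their order in 6 of 6. Ct also depends on the efficiency of each assay, so this is an order of signals and not strictly of molecules.

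**Figure D2:**
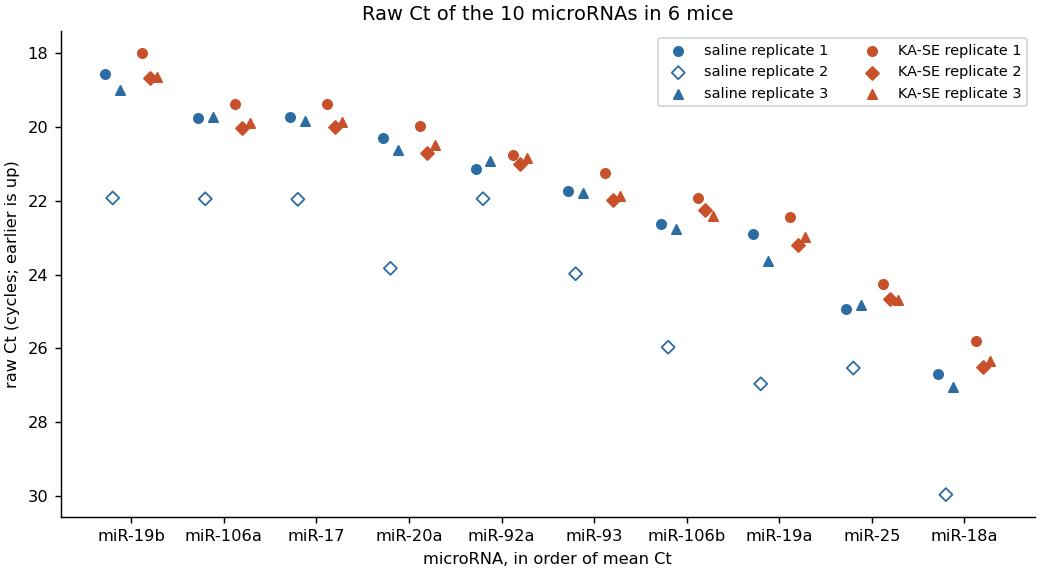
Raw Ct of the 10 members in each library, with the axis inverted so that more RNA is higher, and saline replicate 2 drawn as open diamonds. miR-19b has the earliest mean Ct (19.1) and miR-18a the latest (27.1), and saline replicate 2 lies below both other saline mice for every member.

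Of the 10 members, 0 passed the test between KA-SE and saline, as did 0% of the 281 microRNAs tested, and it was also 0% without saline replicate 2 (limma on levels over U6, Benjamini-Hochberg adjusted p under 0.05 and at least a 1.5-fold change). At an unadjusted p under 0.05 limma gave 8 of 281 microRNAs, with 0 members among them. Without saline replicate 2 it gave 24, with 1 member (miR-18a), and over the global mean 25, again with 1 member (miR-18a). Over U6 the log2 fold change was positive in all 10 members, as it was in 87.2% of all tested microRNAs, so the sign alone does not set the members apart. Their median was 0.88, against 0.62 over all tested, and without saline replicate 2 it was 0.33 against 0.12. In 5 members (miR-18a, miR-19a, miR-20a, miR-19b and miR-106b) every KA-SE level lay above every saline level, a pattern seen in 19.2% of tested microRNAs. The opposite pattern, every KA-SE level below every saline level, was seen in 0 members and in 1.42% of tested microRNAs. Without saline replicate 2 the same 5 members did not overlap in the higher direction, against 19.6% of tested microRNAs.

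The reference mattered for which members stood above saline. When levels were taken over the mean of all tested microRNAs in the library (global mean), the KA-SE and saline values of 4 members, miR-18a, miR-19a, miR-19b and miR-106b, did not overlap, with KA-SE higher, against 12.8% of tested microRNAs. With KA-SE lower there were 0 members, against 12.1%. Without saline replicate 2 these were again the 4 members that did not overlap over the global mean, against 16.0%. miR-17, miR-93, miR-106a and miR-92a had log2 fold changes of -0.06, -0.0031, -0.11 and -0.35 over the global mean, so their direction flipped with the reference.

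miR-18a, the sole member with its seed and the member of weakest signal, had the largest fold change over U6. Its Ct was 26.7, 30.0 and 27.0 in saline replicates 1 to 3 and 25.8, 26.5 and 26.4 in KA-SE replicates 1 to 3. All 3 KA-SE libraries crossed earlier than the earliest saline library. Its level over U6 was -13.80, -16.09 and -13.64 in saline and -13.02, -12.95 and -13.02 after KA-SE, a log2 fold change of 1.51 (standard error 0.70, limma adjusted p = 0.556). Leaving out saline replicate 2 lowered this to 0.72 (standard error 0.19, adjusted p = 0.374), and over the global mean it was 0.86 (standard error 0.29, adjusted p = 0.464). It stayed positive in all 24 settings run, from 0.60 to 1.95, though settings that changed only the test or detection limit could not move it.

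miR-19a and miR-19b, the pair that differ at 1 base, lay above saline in every KA-SE mouse. The Ct of miR-19a was 22.9, 27.0 and 23.6 in saline and 22.4, 23.2 and 23.0 after KA-SE. That of miR-19b was 18.6, 21.9 and 18.99 in saline and 18.001, 18.7 and 18.7 after KA-SE. In raw Ct the groups thus overlap for both, and they separate once U6 or the global mean is subtracted. The level of miR-19a was -10.01, -13.09 and -10.24 in saline and -9.65, -9.63 and -9.66 after KA-SE. The level of miR-19b was -5.67, -8.05 and -5.59 in saline and -5.22, -5.09 and -5.32 after KA-SE. The saline spread is thus mostly saline replicate 2, and the KA-SE mice lay close together. Log2 fold changes were 1.46 (standard error 0.83) for miR-19a and 1.22 (standard error 0.71) for miR-19b, both with an adjusted p = 0.556 in limma, and 0.48 and 0.42 without saline replicate 2.

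In the group with the miR-17 seed, miR-106b, the first member of the cluster in Mcm7, had the largest log2 fold change over U6. Its Ct was 22.6, 25.97 and 22.8 in saline and 21.9, 22.3 and 22.4 after KA-SE. Each KA-SE library crossed before each saline library. Its level over U6 was -9.74, -12.10 and -9.37 in saline and -9.15, -8.69 and -9.07 after KA-SE. The log2 fold change was 1.43 (standard error 0.75, limma adjusted p = 0.556), and it was 0.58 (standard error 0.25) without saline replicate 2 and 0.78 (standard error 0.34) over the global mean.

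miR-17, which gives the cluster its name, and its near copy miR-106a overlapped between the groups. The level of miR-17 was -6.83, -8.08 and -6.44 in saline and -6.60, -6.43 and -6.52 after KA-SE. That of miR-106a, from the X chromosome, was -6.87, -8.07 and -6.32 in saline and -6.59, -6.46 and -6.56 after KA-SE. For both, the KA-SE mice lay between saline replicate 1 and saline replicate 3 or close to the latter. Their log2 fold changes were 0.60 (standard error 0.53, adjusted p = 0.612) and 0.55 (standard error 0.54, adjusted p = 0.615) in limma, and 0.12 and 0.06 without saline replicate 2.

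miR-93, the cluster partner of miR-106b, had a fold change closer to that of miR-17 than to that of miR-106b. Its level was -8.85, -10.10 and -8.39 in saline and -8.45, -8.40 and -8.53 after KA-SE, with overlapping groups. The log2 fold change was 0.65 (standard error 0.54, limma adjusted p = 0.586), or 0.16 without saline replicate 2. miR-20a had levels of -7.40, -9.96 and -7.23 in saline and -7.18, -7.15 and -7.17 after KA-SE. The KA-SE values lay above all saline values, with saline replicate 3 close below them. Its log2 fold change was 1.03 (standard error 0.75, limma adjusted p = 0.556) and was 0.15 without saline replicate 2.

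The remaining seed group holds miR-92a, the last hairpin of miR-17-92, and miR-25, the last of miR-106b-25. The level of miR-92a was -8.24, -8.07 and -7.53 in saline and -7.97, -7.45 and -7.51 after KA-SE, and its log2 fold change of 0.30 (standard error 0.43, limma adjusted p = 0.700) was the smallest of the members over all 6 libraries. Without saline replicate 2 it was 0.24, above those of miR-106a, miR-17, miR-20a and miR-93. It was the one member for which saline replicate 2 was not the lowest saline level. The level of miR-25 was -12.04, -12.66 and -11.43 in saline and -11.46, -11.09 and -11.37 after KA-SE, and the log2 fold change was 0.73 (standard error 0.47, limma adjusted p = 0.556), or 0.43 without saline replicate 2. Both overlapped between the groups.

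**Figure D3:**
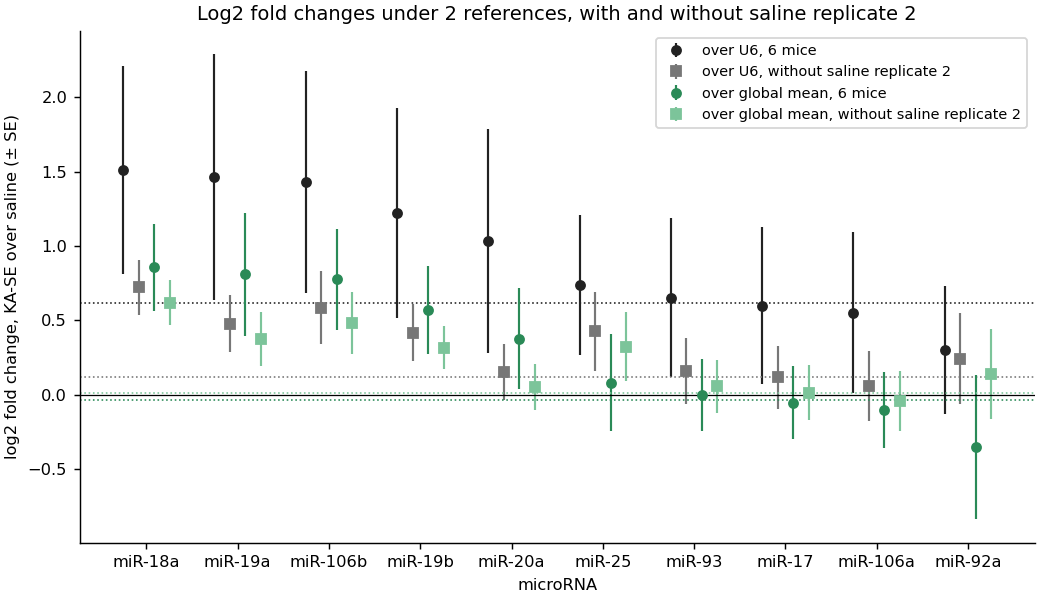
Log2 fold change (KA-SE over saline) of the 10 members with standard errors from limma, over U6 and over the global mean, each with all 6 libraries and without saline replicate 2. Dotted lines are the median of all tested microRNAs in the same setting. miR-18a, miR-19a, miR-106b and miR-19b lie highest over U6, at 1.51, 1.46, 1.43 and 1.22.

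The members spread less than the median microRNA among the KA-SE mice, and in saline too unless saline replicate 2 was included over U6. Over U6 the standard deviation among the 3 KA-SE mice had a median of 0.075 cycles over the members, from 0.013 for miR-19a to 0.288 for miR-92a, against a median of 0.198 over all 281 tested, and 8 of 10 members lay below that median. In saline the medians were 1.14 for members and 0.98 for all tested. They were 0.27 and 0.33 without saline replicate 2, from saline replicates 1 and 3 only, with 7 of 10 members below the latter. Over the global mean the medians were 0.13 for members and 0.18 for all tested after KA-SE, and 0.47 and 0.58 in saline. Members were selected by name, and this difference in spread was not tested. The median level of the members lay 1.65 to 2.17 cycles above the global mean in each library. The part of signal level in the spread was not tested either.

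Within a library, a difference between 2 members needs no reference RNA. The mean level of the 6 miR-17-92 members minus that of the 3 miR-106b-25 members was 1.55, 1.06 and 1.28 in saline and 1.41, 1.27 and 1.45 after KA-SE. The groups overlapped, with a mean of 1.30 ± 0.24 for saline (SD, n = 3) and of 1.38 ± 0.09 for KA-SE (SD, n = 3). They differed by 0.082, or -0.036 without saline replicate 2. As means over members these carry no test. By medians of the members the values were 1.92, 3.08 and 1.98 in saline and 1.57, 1.39 and 1.73 after KA-SE. These did not overlap and ran in the opposite direction, with a difference of -0.763, or -0.388 without saline replicate 2. In every library the median of the 3 miR-106b-25 members was miR-106b itself. The medians thus set miR-106b alone against miR-17-92 and do not describe its cluster.

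The 12 pairs of members with the same seed were then compared one by one. The level of miR-106b minus that of miR-93 was -0.90, -1.99 and -0.97 in saline and -0.69, -0.29 and -0.55 after KA-SE. These are neighbours on 1 primary transcript, and the groups did not overlap, with KA-SE higher by 0.78, or by 0.43 without saline replicate 2. Against miR-106b the differences of miR-17 were 2.91, 4.01 and 2.93 in saline and 2.55, 2.25 and 2.55 after KA-SE. Those of miR-20a were 2.34, 2.14 and 2.13 in saline and 1.96, 1.54 and 1.90 after KA-SE. The distance to miR-106b was smaller after KA-SE for both, with changes of -0.83 and -0.40, or -0.47 and -0.43 without saline replicate 2. For miR-106b minus miR-106a the change was 0.88, or 0.53 without that library. Thus miR-106b stood higher after KA-SE relative to all 4 same-seed members, in each case with non-overlapping groups. Each of the 4 had an exact two-sided permutation p = 0.1, the smallest that 3 against 3 allows, and 0.24 after Benjamini-Hochberg adjustment over the 12 pairs, so none passed. The 4 pairs share the values of miR-106b and are not independent of each other. Because miR-106b had the largest log2 fold change with this seed, its direction against all 4 follows from that. How often other pairs of tested microRNAs separate in this way was not counted.

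Other same-seed members kept a nearly constant distance. miR-17 minus miR-106a was 0.046, -0.013 and -0.119 in saline and -0.006, 0.029 and 0.037 after KA-SE, a change of 0.05 (exact permutation p = 0.6). miR-17 minus miR-93, on different chromosomes and 4 bases apart, was 2.018, 2.017 and 1.955 in saline and 1.856, 1.967 and 2.007 after KA-SE, a change of -0.05 (exact permutation p = 0.5). In saline replicate 2 all 3 lay just short of whole cycles, so their differences there were bound to be near whole numbers. That these were near those of the other mice therefore says nothing about a constant distance in that library. Without saline replicate 2 the changes were 0.06 and -0.04. miR-93 minus miR-106a did not overlap between the groups, but the change was 0.10 (exact permutation p = 0.1, adjusted 0.24).

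In the remaining same-seed pairs the change was smaller without saline replicate 2. miR-17 minus miR-20a was 1.87 in that library and 0.58 to 0.80 in the other 5, so its change of -0.43 became -0.04 without it. miR-20a minus miR-93 went from 0.38 to -0.005, and miR-20a minus miR-106a from 0.48 to 0.09. miR-19a minus miR-19b was -4.34, -5.04 and -4.66 in saline and -4.43, -4.54 and -4.34 after KA-SE, and overlapped (change 0.24, exact permutation p = 0.4, or a change of 0.06 without saline replicate 2). miR-92a minus miR-25 was 3.80, 4.59 and 3.90 in saline and 3.49, 3.64 and 3.85 after KA-SE, with a change of -0.43 (exact permutation p = 0.2), or -0.19 without saline replicate 2.

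**Figure D4:**
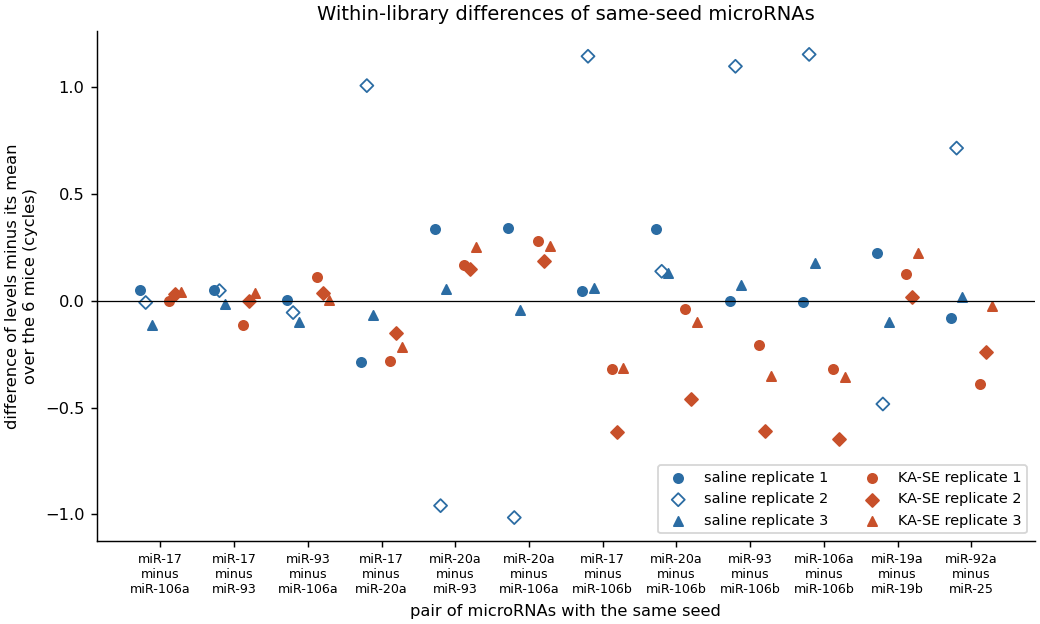
Difference of level between the 2 members of each of the 12 same-seed pairs in each library, in cycles, after subtraction of the pair's mean over the 6 mice. The KA-SE points of the 4 pairs with miR-106b lie apart from the saline points, with changes of 0.78 and 0.88 against miR-93 and miR-106a, while the points of miR-17 minus miR-106a lie close together.

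Relatives of the clusters on the card were read as well. Of 7, 3 were below Ct 35 in all libraries. miR-20b, of the miR-106a-363 cluster and with the miR-17 seed, had levels of -10.25, -12.10 and -10.12 in saline and -10.06, -10.23 and -10.09 after KA-SE and overlapped, and the log2 fold change was 0.70 (standard error 0.61, limma adjusted p = 0.610), or 0.06 without saline replicate 2. miR-32, which carries the miR-92a seed but comes from another locus, had a late Ct of 28.4, 33.8 and 32.04 in saline and 28.4, 30.6 and 28.9 after KA-SE, and a log2 fold change of 1.94 (standard error 1.11, limma adjusted p = 0.556), or 0.99 (standard error 0.98) without saline replicate 2. miR-363, the last hairpin of the X-chromosome cluster, had a Ct of 30.8, 32.8 and 33.4 in saline and 30.1, 34.9 and 33.9 after KA-SE, and a log2 fold change of -0.83 (standard error 1.10, limma adjusted p = 0.682), or -0.80 without saline replicate 2. The seed of miR-92a thus occurred on microRNAs with values in both directions, none past the test. miR-367 had a Ct of 32.8, 40 and 36.0 in saline and 31.2, 34.9 and 32.7 after KA-SE and was not tested. miR-18b and the rat assay for the passenger strand of miR-17 gave 40 in all 6 libraries, and the rat assay for the passenger strand of miR-20b gave 40 in all but saline replicate 3 (29.9).

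The microRNAs whose profile over the 6 libraries was nearest to the mean profile of the members, relative to the global mean and centred, were miR-434-5p, miR-376c, miR-370, miR-497 and miR-30e. Their root mean square differences from it were 0.085, 0.088, 0.0989, 0.0996 and 0.1003 cycles, against a median of 0.51 over the 268 microRNAs compared. Single members lay farther from their own mean profile, from 0.20 for miR-93 to 0.66 for miR-92a. The log2 fold changes of the 5 over U6 were 0.89, 0.95, 0.91, 0.98 and 0.93, and 0.32, 0.30, 0.28, 0.27 and 0.24 without saline replicate 2.

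The summed level of neuronal markers, carried mostly by miR-9 and miR-218, lay higher after KA-SE, although not every neuronal marker did. The sums of other cell types overlapped between the groups over all 6 libraries, although some single markers did not. In bulk tissue, fewer cells of a type and less RNA per cell cannot be told apart. The summed level of the 5 neuronal microRNAs on the card, all detected, was 111 to 638 per 1000 U6 in saline (605 to 638 without saline replicate 2) and 706 to 827 after KA-SE, so it did not overlap, with the direction of the members over U6. In saline replicate 1 the levels of miR-9 and miR-218 were -1.61 and -2.11. Those of miR-128a, miR-124 and miR-137 were -5.63, -6.21 and -6.38, so they add little to the sum. Of the 5, miR-124, miR-9 and miR-218 lay above all saline mice in every KA-SE mouse, a pattern seen in 19.2% of tested microRNAs. miR-128a and miR-137 overlapped, and the level of miR-137 was -6.38, -8.97 and -6.23 in saline and -6.46, -6.39 and -6.50 after KA-SE. For both endothelial microRNAs it was 31.5 to 115 in saline and 86.9 to 100.01 after KA-SE. For the 4 leukocyte and microglia microRNAs it was 40.5 to 58.8 and 41.9 to 50.1, a sum made up mostly of miR-150. The Ct of miR-150 was 17.6 in saline replicate 1, against 22.9 for miR-142-3p, 23.3 for miR-223 and 27.0 for miR-142-5p. Over U6 miR-142-3p and miR-142-5p lay above all saline mice in every KA-SE mouse, a pattern of 19.2% of tested microRNAs. miR-223 and miR-150 overlapped. The sum was 0.75 to 2.60 and 2.12 to 2.67 for the 3 of oligodendrocytes, and 0.092 to 0.419 and 0.319 to 0.484 for miR-451 of erythrocytes. For the 4 of choroid plexus it was 52.2 to 109 and 64.2 to 74.8. Without saline replicate 2 the choroid plexus sum was 92.7 to 109 in saline, above all KA-SE mice. It is carried mostly by miR-204, with a Ct of 16.2 in saline replicate 1. The Ct of miR-34b-3p, miR-211 and miR-449a was 20.7, 23.3 and 26.9 in that library. Over U6 these overlapped between the groups without saline replicate 2, so the lower sum describes miR-204 and not all markers of the cell type. Of 8 microRNAs of pluripotent cells 3 were below Ct 35 in all libraries and miR-295 in none, with sums of 0.017 to 1.03 in saline and 0.0051 to 0.022 after KA-SE. The part of cell composition in the values of the members was not tested.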

How the data were processed

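From each of 6 mice, 800 ng of RNA was converted to cDNA with Megaplex primers for 1 TaqMan card. Groups follow the sample labels. The authors deposited raw Ct values, used here as an instrument score per assay with 40 for no amplification, and for the instrument software and threshold the entry is "not given in the sources used here". They also deposited a normalized table on a log2 scale, Ct relative to a reference that the methods name as RNU6B, used here only as an alternative, because for most members it does not equal raw Ct minus 1 constant per library. A deposited table of fold changes holds the authors' own comparisons and was not used. All sample columns matched by name, and 0 were left out.

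Levels over U6 (assay MammU6, as the card holds no RNU6B) were tested for the 281 mouse and rat microRNAs with Ct below 35 in all 6 libraries, with limma 3.58.1 in R 4.3.3 and Benjamini-Hochberg adjustment over all of them. A call needed a change of 1.5-fold or more at an adjusted p under 0.05. Same-seed pairs had two-sided exact permutation tests. The rule for named microRNAs took all 10 members, their relatives on the card, the 5 nearest profiles and the marker lists. The members and lists were chosen with earlier results of these data known. The fit was tested on simulated data. Ct gives no read count, so precision rests on 3 mice per group. Alternatives were other references, detection limits and tests, a replicate block and leaving out each library. The omission of saline replicate 2 combined with another reference was added after seeing the data. Proteins and mRNAs were not analysed here.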

Additional observations from a re-analysis of the deposited data

Results flagged for a closer look

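One signal lay outside the assays compared above. The plant microRNA ath-miR159a, a negative control that has no counterpart in mice, gave no amplification (Ct 40) in saline replicates 1 and 3 and in KA-SE replicate 1, but a raw Ct of 21.663 in saline replicate 2, 19.543 in KA-SE replicate 2 and 18.804 in KA-SE replicate 3. In KA-SE replicates 2 and 3 it lay in the range of raw Ct of the members in the same library. In saline replicate 2 it crossed earlier than every member, the earliest of which was at 21.924. The relation of these signals to the member values was not tested.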

How the results depend on the processing

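The comparison had 3 mice per group, with 1 saline library late, and 0 members passed. The largest change over U6, 2.85-fold for miR-18a, had a limma adjusted p = 0.556. Without saline replicate 2 it was 1.65-fold (limma adjusted p = 0.374). The absence of calls does not show that the members were unchanged, and its cause was not tested. Across the 23 alternatives 0 members were called. The log2 fold changes of the members kept their direction in 214 alternative values and reversed in 16. Those of miR-18a, miR-19a, miR-20a, miR-19b, miR-106b and miR-25 were positive in all 24 settings. Settings that changed only the test, fold change limit, detection limit, assays included or block gave the main values and could not reverse. Only 6 members were positive with the global mean, the median or quantile normalization in place of U6. In that order miR-17 had -0.056, -0.12 and -0.13, miR-92a -0.35, -0.42 and -0.41, miR-93 -0.0031, -0.071 and -0.023, and miR-106a -0.11, -0.17 and -0.17. With saline replicate 2 left out, miR-106a had -0.044 over the global mean, -0.062 over snoRNA135 and snoRNA202 and -0.022 in raw Ct, and miR-17 had -0.0055 over the snoRNAs. The cause was not tested.

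Leaving out 1 library at a time, the median log2 fold change of the members ran from 0.33 (without saline replicate 2) to 1.28. The fold change of miR-18a ran from 0.72 to 1.95, that of miR-19a from 0.48 to 2.02, that of miR-19b from 0.42 to 1.65 and that of miR-106b from 0.58 to 1.95. The difference between the clusters ran from -0.036 to 0.208. It was -0.763 with medians of the members, where miR-106b alone stands for its cluster. The same-seed pairs reversed in 2 alternative values and otherwise kept their direction. The exceptions were miR-17 and miR-106a with the authors' normalized table (-0.005), and miR-20a and miR-93 without saline replicate 2, where the range over left-out libraries was -0.005 to 0.64. The pairs with miR-106b kept exact permutation p = 0.1 in the normalized table. With 1 KA-SE library left out, the exact permutation p was 0.2 to 0.3 against miR-17, miR-93 and miR-106a. Against miR-20a it stayed at 0.1 there, but was 0.2 without saline replicate 1. Against miR-93 it was also 0.2 without saline replicate 2.

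With a Ct below 35 required in 1 group only, and with no filter, 1 microRNA was called in each case, miR-296-3p, which is not a member and was named after its values were seen. At an unadjusted p under 0.05 the number of microRNAs was 8, against 25 over the global mean, 24 with quantile normalization (3 of them members), 6 with the methods' t-test, 3 with a variance trend, 24 without saline replicate 2, and 2 to 32 over all left-out libraries.

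Replicate numbers are shared between the groups, but same-numbered libraries correlated at 0.189, 0.236 and 0.047, so the numbers were not taken as pairs, although every library correlated best with its own number. With the replicate number as a block 0 microRNAs were called, 33 had an unadjusted p under 0.05, and the median of the members stayed at 0.88. The smallest limma adjusted p over all tested was then 0.0502, just above the threshold, and 0.452 among the members.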
